A study of Macaca fascicularis with 6 samples.

Results

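The genes described here encode the enzymes that carry glucose through glycolysis from hexokinase to pyruvate kinase in oocytes of the cynomolgus monkey (Macaca fascicularis). They are HK1, GPI, PFKP, ALDOA, TPI1, GAPDH, PGK1, PGAM1, ENO1 and PKM, taken by symbol as 1 gene for each step of the pathway, and they make up 10 of the 28164 genes in the deposited count table. The study sequenced 3 groups of oocytes, with 2 libraries in each. IVM MII oocytes had matured in culture to metaphase of the second meiotic division. IVO MII oocytes had reached the same stage inside the animal. GV oocytes were immature and still held an intact nucleus, the germinal vesicle. All 3 groups were wild type, were labelled as not treated, and were stripped of the cells that surround them. How many oocytes and animals a library stands for is not given in the sources used here, so the p-values measure the spread between these libraries, which may be partly technical.

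Glycolysis breaks glucose down to pyruvate in the cytosol. Its preparatory phase, from hexokinase to triosephosphate isomerase, spends ATP to make triose phosphates, and its payoff phase, from GAPDH to pyruvate kinase, recovers ATP and reduces NAD to NADH. Oocytes, studied in this respect chiefly in the mouse, are known to use little glucose through glycolysis themselves and to take up pyruvate that cumulus cells supply.

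The libraries held 35515139 and 33875153 counts in IVM MII, 27707021 and 29354497 in IVO MII, and 31421282 and 32777458 in GV. Levels are given as CPM, counts scaled to the library size with TMM factors. A floor of 3 counts corresponded to between 0.0694 and 0.116 CPM by library, and it covers counting error only. RNA was captured by its poly(A) tail, so each level is a share of the poly(A) RNA captured in that library, and less RNA per oocyte cannot be told apart from a shorter tail or from fewer oocytes. The reads were aligned with Bowtie2, which does not split a read over an intron. Reads over exon junctions may therefore be missing or may lie in processed copies, a doubt that bears on every gene named here and most on genes such as GAPDH that have many such copies.

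Transcripts of most enzymes of glycolysis made up a far smaller share of the RNA in mature oocytes than in immature ones. GPI, ALDOA, TPI1, GAPDH, ENO1 and PKM fell in both IVM MII and IVO MII relative to GV, by between 2.78-fold for PKM and 18.9-fold for GPI. PFKP, the phosphofructokinase, was the most abundant of the enzymes in each group, and fell in IVM MII relative to GV by 1.66-fold. PGK1 stayed between 13.0 and 18.9 CPM in the 6 libraries and was not called in any comparison. Between the mature groups only GAPDH was called, at a lower level in IVM MII than in IVO MII, and that call was not stable. A gene is said to have risen, fallen or changed where edgeR's quasi-likelihood test gave an adjusted p under 0.05, with Benjamini-Hochberg adjustment over the 15815 genes tested. HK1 had too few counts to be tested, which leaves 9 of the 10 genes in the tests.

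**Figure D1:**
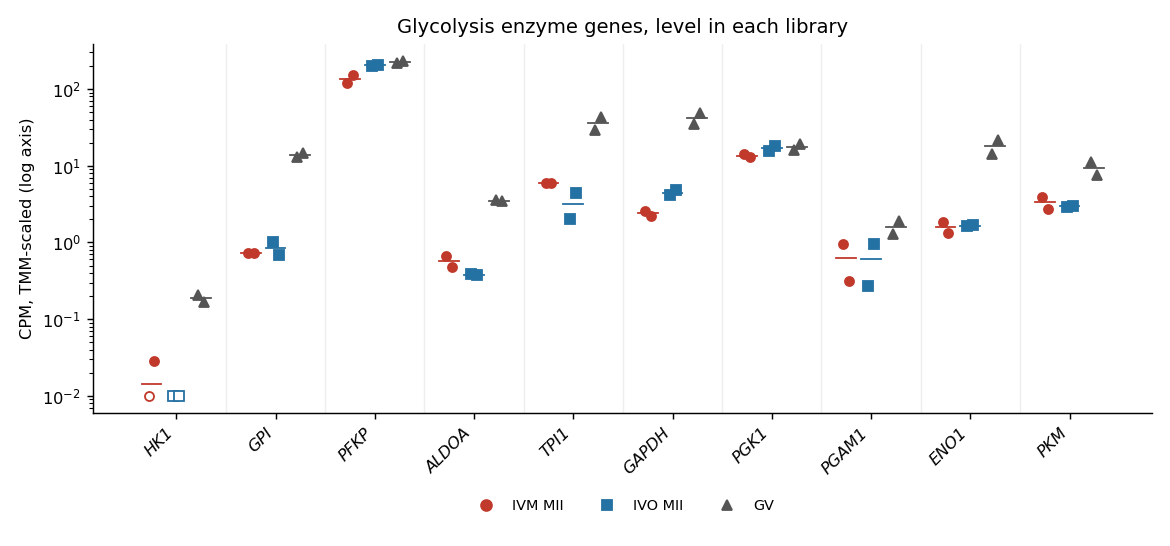
CPM of the 10 glycolysis enzyme genes on a log axis, with a point for each library and a line at the mean of the 2 libraries of a group; open symbols at the bottom mark libraries with no count. PFKP lies above 100 CPM in each library, PGK1 lies near the same level in the 3 groups, and GPI, ALDOA, TPI1, GAPDH, ENO1 and PKM have both GV libraries above the 4 libraries of mature oocytes.

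The first step was almost without transcripts of HK1, the hexokinase taken for it here, whereas ADPGK, described below, was abundant. Hexokinase, encoded by HK1 (chr9:66293669-66426462 of macFas5), phosphorylates glucose and so holds it in the cell. HK1 had 0 and 1 counts in the IVM MII libraries, 0 and 0 in the IVO MII libraries, and 6 and 5 in the GV libraries. At or near the floor in each group, it allowed no test and no fold change.

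GPI (chr19:34809668-34877082) interconverts glucose 6-phosphate and fructose 6-phosphate. It stood at 0.717 and 0.739 CPM in IVM MII, at 1.00 and 0.679 CPM in IVO MII, and at 12.9 and 14.7 CPM in GV. Both GV libraries were far above the 4 mature libraries, while the IVM MII values lay inside the range of the IVO MII values. GPI fell by 18.9-fold in IVM MII relative to GV (log2 fold change -4.24 ± 0.35, SE; adjusted p = 5.08e-06 by edgeR). In IVO MII it fell by 16.4-fold relative to GV (log2 fold change -4.04 ± 0.35, adjusted p = 4.69e-06 by edgeR). Within each of these comparisons no other of the 9 genes tested fell further.

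PFKP (chr9:3368071-3440275) is the platelet-type phosphofructokinase, which adds the second phosphate at the step that commits sugar to glycolysis. It stood at 119 and 152 CPM in IVM MII, at 201 and 207 CPM in IVO MII, and at 216 and 234 CPM in GV. The 3 groups did not overlap, with IVM MII lowest and GV highest. PFKP fell in IVM MII relative to GV (log2 fold change -0.73 ± 0.22, adjusted p = 0.0156 by edgeR). The call was lost with library totals in place of TMM (-0.45, adjusted p = 0.0771 by edgeR), without IVM MII replicate 1 (-0.53, adjusted p = 0.143) and without GV replicate 2 (-0.67, adjusted p = 0.0819). IVO MII against GV was not called (log2 fold change -0.14 ± 0.22, adjusted p = 0.593 by edgeR).

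ALDOA (chr20:28567279-28573655), aldolase A, cleaves the doubly phosphorylated sugar into its triose phosphates. It stood at 0.671 and 0.483 CPM in IVM MII, at 0.386 and 0.373 CPM in IVO MII, and at 3.57 and 3.45 CPM in GV. The groups did not overlap, and the IVM MII and IVO MII libraries rested on only 10 to 29 counts each. ALDOA fell in IVM MII relative to GV by 6.02-fold (log2 fold change -2.59 ± 0.43, adjusted p = 0.000524 by edgeR). In IVO MII it fell by 9.16-fold relative to GV (log2 fold change -3.20 ± 0.46, adjusted p = 0.000129 by edgeR).

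TPI1 (chr11:7171678-7175776) interconverts the triose phosphates so that both enter the payoff phase. It stood at 5.95 and 5.94 CPM in IVM MII, at 2.05 and 4.38 CPM in IVO MII, and at 29.3 and 43.5 CPM in GV. The 3 groups did not overlap, and here IVM MII lay between IVO MII and GV. TPI1 fell by 6.12-fold in IVM MII relative to GV (adjusted p = 0.000129 by edgeR) and by 11.3-fold in IVO MII relative to GV (adjusted p = 1.75e-05 by edgeR). By ratio, its IVO MII libraries differed more from each other than those of either other group.

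The payoff phase opens with GAPDH (chr11:6790990-6795457), which oxidises glyceraldehyde 3-phosphate and makes NADH. It stood at 2.57 and 2.22 CPM in IVM MII, at 4.17 and 4.75 CPM in IVO MII, and at 34.9 and 48.8 CPM in GV. The 3 groups were well apart, with GV highest and IVM MII lowest. GAPDH fell by 17.4-fold in IVM MII relative to GV (log2 fold change -4.12 ± 0.29, adjusted p = 1.89e-06 by edgeR). In IVO MII it fell by 9.36-fold relative to GV (log2 fold change -3.23 ± 0.28, adjusted p = 4.55e-06 by edgeR). GAPDH is often used as a constant standard in expression measurements, and it was not constant over these groups.

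PGK1 (chrX:75020294-75043168) makes the first ATP of the payoff phase. It stood at 14.1 and 13.0 CPM in IVM MII, at 15.7 and 18.0 CPM in IVO MII, and at 15.8 and 18.9 CPM in GV. The IVO MII and GV values overlapped, and both IVM MII values lay below them. The log2 fold change was -0.36 ± 0.24 for IVM MII against GV (adjusted p = 0.230 by edgeR) and -0.05 ± 0.24 for IVO MII against GV (adjusted p = 0.877 by edgeR). With only genes of at least 10 CPM in 2 libraries kept, IVM MII against GV passed at -0.64 (adjusted p = 0.0407 by edgeR).

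PGAM1 (chr9:96246441-96254901) moves the phosphate of phosphoglycerate. It stood at 0.949 and 0.312 CPM in IVM MII, at 0.270 and 0.951 CPM in IVO MII, and at 1.29 and 1.93 CPM in GV. Both GV libraries were above the 4 mature libraries, which covered nearly the same range in IVM MII and IVO MII and held as few as 7 counts. The log2 fold change of -1.33 ± 0.64 for IVM MII against GV was not called (adjusted p = 0.104 by edgeR), nor was that of -1.38 ± 0.66 for IVO MII against GV (adjusted p = 0.0922 by edgeR). The outcome varied with the libraries in the fit. IVM MII against GV was called at -2.31 without IVM MII replicate 1 (adjusted p = 0.0462 by edgeR), and IVO MII against GV at -2.54 without IVO MII replicate 2 (adjusted p = 0.00811 by edgeR). It was also called for IVM MII against GV without IVO MII replicate 1 (-1.31), without IVO MII replicate 2 (-1.31) and in a fit of the 4 compared libraries alone (-1.41).

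ENO1 (chr1:219423813-219440896), enolase, makes phosphoenolpyruvate. It stood at 1.85 and 1.31 CPM in IVM MII, at 1.62 and 1.66 CPM in IVO MII, and at 14.2 and 21.4 CPM in GV. The mature groups overlapped, and both GV libraries were far above them. ENO1 fell by 11.2-fold in IVM MII (adjusted p = 1.4e-05 by edgeR) and by 10.8-fold in IVO MII (adjusted p = 1.18e-05 by edgeR), each relative to GV.

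PKM (chr7:50031819-50064868), pyruvate kinase, makes pyruvate and the last ATP of the pathway. It stood at 3.93 and 2.73 CPM in IVM MII, at 2.94 and 2.99 CPM in IVO MII, and at 11.03 and 7.57 CPM in GV. The mature groups overlapped below both GV libraries. PKM fell by 2.78-fold in IVM MII (log2 fold change -1.48 ± 0.33, adjusted p = 0.00304 by edgeR) and by 3.14-fold in IVO MII (log2 fold change -1.65 ± 0.33, adjusted p = 0.00125 by edgeR), each relative to GV. Its splice forms are not separated in a table of counts by gene.

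In IVM MII against GV, 7 of the 9 tested genes fell and 0 rose, where 24.7% of all tested genes fell and 25.6% rose. The median log2 fold change of the 9 was -2.59, against 0.06 over all 15815 genes. Both IVM MII libraries lay below both GV libraries for each of the 9 and above them for 0, against 37.4% and 40.4% of all tested genes. In IVO MII against GV, 6 of the 9 fell and 0 rose, where 30.5% of all tested genes fell and 28.1% rose. There the median was -3.20, against -0.07 over all genes, and both IVO MII libraries lay below both GV libraries for 8 of the 9 and above them for 0, against 42.1% and 38.2% of all tested genes. The 2 comparisons share the GV libraries, so they are not independent of each other. The members were chosen with earlier results of these data known, so these counts are a description and not an independent test. The falls of GPI, ALDOA, TPI1, GAPDH, ENO1 and PKM kept their direction and their call under each of the 15 alternative settings that tested the gene. The strict filter at 10 CPM tested only 6 of the 10 genes.

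**Figure D2:**
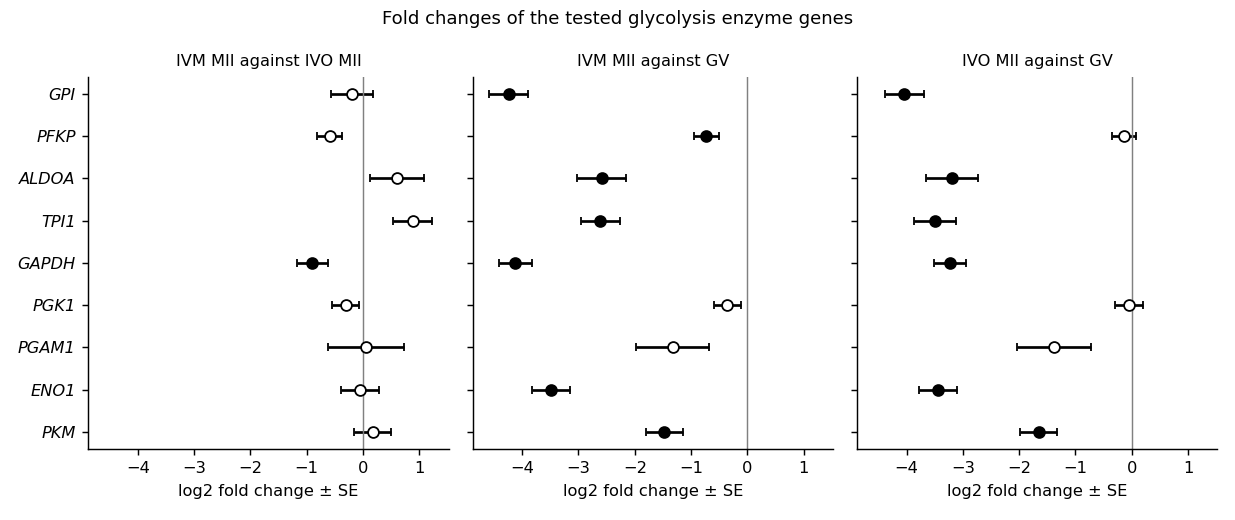
Log2 fold changes of the 9 tested glycolysis enzyme genes in each comparison, with bars for the standard error; filled points have an adjusted p under 0.05 by edgeR and open points do not. Against GV, GPI and GAPDH lie furthest to the left in IVM MII, PGK1 lies near 0, and in IVM MII against IVO MII only GAPDH is filled, at -0.90.

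Other cell types were read from marker lists in the same libraries. The 18 oocyte markers were all tested. Their summed CPM ran from 26930 to 32920 in IVM MII, from 32920 to 34200 in IVO MII and from 50230 to 58100 in GV. The sum hides differences between the mature groups. In IVM MII against IVO MII, 7 of the 18 were called higher and 1 lower, against 14.3% and 10.3% of all tested genes. Higher were ZP2, ZP3, ZP4, GDF9, NLRP5, KHDC3L and TLE6, and lower was WEE2. Of 21 cumulus and granulosa markers in the table, 6 were at 0 in every library, among them FOXL2, INHA and STAR, and the sum ran from 211.8 to 348.3 CPM in IVM MII, from 262.2 to 326.9 CPM in IVO MII and from 238.4 to 268.5 CPM in GV. Most of that sum was SERPINE2, at 133 to 275 CPM in a library and not called. Of the 6 that were tested, GREM1 stood at 32.8 and 25.3 CPM in IVM MII, 4.83 and 3.19 CPM in IVO MII and 5.11 and 2.84 CPM in GV, and was 7.25-fold higher in IVM MII than in IVO MII (adjusted p = 0.000197 by edgeR). TNFAIP6 was 2.04-fold higher in IVM MII than in IVO MII (adjusted p = 0.0117 by edgeR), and HAS2 rose relative to GV by 3.75-fold in IVM MII and 4.44-fold in IVO MII (adjusted p = 0.00149 and 0.000486 by edgeR). In the other direction, TNFAIP6 fell in IVO MII relative to GV (log2 fold change -0.69, adjusted p = 0.0333 by edgeR). CYP19A1, with 4 counts in IVM MII, 20 in IVO MII and 39 in GV, fell in IVM MII relative to GV (adjusted p = 0.0271 by edgeR). The part of these genes in the differences between the mature groups was not tested. The 14 theca, stroma and endothelium markers summed to between 155.5 and 163.3 CPM in IVM MII, between 91.1 and 95.5 CPM in IVO MII and between 331.9 and 390.4 CPM in GV, with CYP17A1, LUM and KDR at 0 in every library. Most of that sum was VWF, a gene of endothelium and platelets, at 105 and 102 CPM in IVM MII, 41.8 and 46.0 CPM in IVO MII and 288 and 337 CPM in GV. The 12 blood cell markers in the table summed to between 5.88 and 6.18 CPM in IVM MII, between 4.38 and 7.42 CPM in IVO MII and between 13.5 and 13.7 CPM in GV, with 5 at 0 in every library, HBB among them, and with CSF1R alone at 13.4 and 13.2 CPM in GV. The oocyte, the theca, stroma and endothelium, and the blood cell sums were higher in both GV libraries than in the 4 mature libraries, as most of the enzymes were, and their part in the falls was not tested. Not each marker followed its sum. PECAM1 rose in both mature groups relative to GV, OGN in IVO MII and MS4A1 in IVM MII. Of the oocyte markers, ZP1 and DDX4 rose in IVM MII relative to GV. WEE2, MOS, DAZL and DDX4 rose in IVO MII relative to GV, whereas WEE2 fell in IVM MII.

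IVM MII set against IVO MII asks whether maturation in culture left the pathway at other levels than maturation in the animal. Of the 9 tested genes 1 was lower and 0 were higher in IVM MII, where 10.3% of all tested genes were lower and 14.3% higher, so the count of lower genes is near the background. Their median log2 fold change was -0.05, against 0.02 over all genes. Both IVM MII libraries lay below both IVO MII libraries for 3 of the 9, PFKP, GAPDH and PGK1, and above them for 2, ALDOA and TPI1, against 29.9% and 33.1% of all tested genes. The gene called was GAPDH, at 2.39 ± 0.2497 CPM in IVM MII and 4.46 ± 0.411 CPM in IVO MII (SD, n = 2 each; log2 fold change -0.90 ± 0.28, adjusted p = 0.0344 by edgeR). The call ended with library totals (-0.67, adjusted p = 0.127 by edgeR), with limma-voom (-0.90, adjusted p = 0.0758), and in the 4 compared libraries alone (-0.86, adjusted p = 0.0990). It also ended without IVM MII replicate 1 (-0.98), IVM MII replicate 2 (-0.79), IVO MII replicate 2 (-0.79) or GV replicate 2 (-0.89). Over the alternatives the log2 fold change ran from -1.10 to -0.67 and the adjusted p from 0.00983 to 0.161.

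PFKP and TPI1 came near the threshold in opposite directions. PFKP averaged 135 ± 23.0 CPM in IVM MII and 204 ± 4.09 CPM in IVO MII (log2 fold change -0.59 ± 0.22, adjusted p = 0.0688 by edgeR), and it was called as lower with RLE size factors, with DESeq2 and with an offset for gene length. TPI1 averaged 5.94 ± 0.00752 CPM in IVM MII and 3.21 ± 1.65 CPM in IVO MII (log2 fold change 0.88 ± 0.35, adjusted p = 0.0870 by edgeR). TPI1 was called as higher at 1.54 without IVO MII replicate 2 (adjusted p = 0.00391 by edgeR), which is the IVO MII library with more of it, and in 2 other alternatives. The 2 libraries of a group set the limit here: the standard errors of 0.22 to 0.68 leave room for differences of that size in the genes that were not called.

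Per length, the transcripts of glycolysis shifted towards PFKP and PGK1 in mature oocytes. Levels between genes are compared as RPKM, the scaled CPM divided by the summed exon length in kilobases. The doubt about reads over exon junctions may bear unequally on such comparisons. Exons of up to 200 bases held 181 of the 1817 exon bases of PGAM1 and 2265 of the 2875 of PFKP. The effect on the order and ratios of the genes was not tested. The 10 genes summed to 61.6 ± 6.68 RPKM in IVM MII, 86.8 ± 3.55 RPKM in IVO MII and 149 ± 18.2 RPKM in GV (SD, n = 2 each). PFKP made up 76.1 ± 4.73% of that sum in IVM MII and 81.7 ± 1.70% in IVO MII, against 52.6 ± 3.56% in GV. PGK1 made up 12.2 ± 1.99% in IVM MII and 10.6 ± 0.601% in IVO MII, against 6.41 ± 0.0269% in GV. The 10 genes together took 0.0184% of all counts in IVM MII, 0.0227% in IVO MII and 0.0337% in GV, so the whole pathway is a very small part of these libraries.

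**Figure D3:**
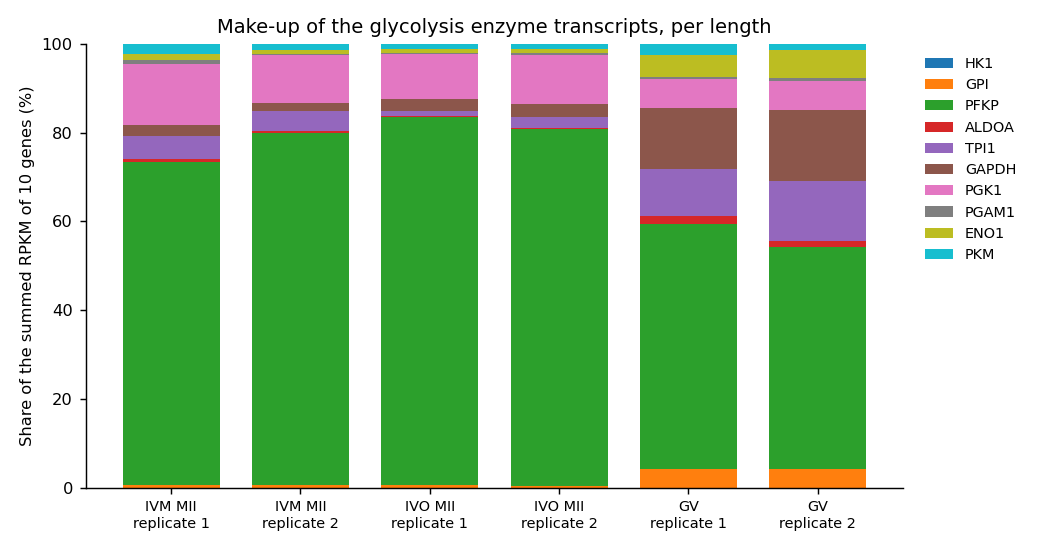
Share of the summed RPKM of the 10 glycolysis enzyme genes that each gene took, in percent, as a stacked bar for each library. PFKP takes 72.8 to 82.9% in the libraries of mature oocytes and 50.1 to 55.1% in the GV libraries, where GAPDH, TPI1, ENO1 and GPI are visible.

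The order of the levels differed between the groups below PFKP. In IVM MII, PFKP at 47.0 ± 7.998 RPKM was followed by PGK1 at 7.45 ± 0.413, TPI1 at 2.97 ± 0.00376 and GAPDH at 1.29 ± 0.134 RPKM, and the libraries of these 4 did not overlap. Below them GAPDH overlapped with PKM, PKM with ENO1, ALDOA with PGAM1, and PGAM1 with GPI. In IVO MII, PFKP at 70.9 ± 1.42 RPKM was followed by PGK1 at 9.25 ± 0.902, GAPDH at 2.40 ± 0.221 and TPI1 at 1.61 ± 0.825 RPKM, and only GPI with PGAM1 and PGAM1 with ALDOA overlapped as neighbours. In GV, PFKP at 78.2 ± 4.28 RPKM was followed by GAPDH at 22.5 ± 5.27 and TPI1 at 18.2 ± 5.04 RPKM, which overlapped, and then by PGK1 at 9.57 ± 1.21 and ENO1 at 8.43 ± 2.41 RPKM, which also overlapped. GPI, PKM, ALDOA, PGAM1 and HK1 came after them in GV with no overlap between neighbours. PGK1 exceeded GAPDH by a ratio of 5.81 ± 0.286 in IVM MII and 3.85 ± 0.0205 in IVO MII, whereas the ratio in GV was 0.431 ± 0.0471, all on the RPKM scale.

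The classical isozymes of the same steps were mostly scarce, whereas ADPGK and BPGM, listed for the same steps, were abundant. Of 16 further genes listed for these steps, 12 had too few counts to be tested. Among them PGK2, ENO2, ENO4 and PKLR had 0 counts in every library. ENO4, named by gene number from LOC102114947, has only 309 exon bases here, so its 0 counts say little about that gene. PFKP made up 98.8 to 99.4% of the RPKM of the phosphofructokinases in each library, PKM and PGK1 made up 100% of theirs, and ENO1 made up 91.9 to 100%. HK1, HK2, HK3 and HKDC1 together had 7 and 19 counts in IVM MII, 12 and 9 in IVO MII and 15 and 18 in GV, or 0.162 to 0.609 CPM in a library. HKDC1 was the only one of them that was tested, and it was not called (adjusted p = 0.553, 0.765 and 0.309 by edgeR for IVM MII against IVO MII, IVM MII against GV and IVO MII against GV). PFKM, the muscle phosphofructokinase, stood at 1.64 and 1.45 CPM in IVM MII, 2.24 and 1.66 CPM in IVO MII and 3.34 and 3.21 CPM in GV. It fell in IVM MII relative to GV (log2 fold change -1.08 ± 0.37, adjusted p = 0.0296 by edgeR), though 185 of its exon bases are shared with SENP1, and the call was lost with library totals (-0.78) and without IVM MII replicate 1 (-1.14), IVM MII replicate 2 (-0.98), GV replicate 1 (-1.04) or GV replicate 2 (-1.10).

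ADPGK and BPGM act beside the hexokinase and phosphoglycerate mutase steps and had far more counts than the members of those steps. They are not in the isozyme shares above. ADPGK, which phosphorylates glucose with ADP in place of ATP, stood at 232 and 180 CPM in IVM MII, at 87.6 and 150 CPM in IVO MII, and at 61.2 and 84.3 CPM in GV. The groups did not overlap, with IVM MII highest, and ADPGK rose by 2.84-fold in IVM MII relative to GV (adjusted p = 0.00135 by edgeR). Its other comparisons were just above the threshold, at an adjusted p of 0.0613 for IVM MII against IVO MII and 0.0506 for IVO MII against GV by edgeR. BPGM, which makes and removes 2,3-bisphosphoglycerate and is best known from red blood cells, stood at 1577 and 2576 CPM in IVM MII, at 2374 and 1903 CPM in IVO MII, and at 3297 and 2609 CPM in GV. It was not called in any comparison, and at 1094 RPKM in IVM MII and 1556 RPKM in GV it was well above PFKP per length, while HBB, the adult beta globin gene, was at 0 in every library.

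TIGAR was the one regulator of phosphofructokinase that rose in both mature groups. Of 4 tested regulators of phosphofructokinase and hexokinase, 3 rose and 0 fell in IVM MII relative to GV, against 25.6% and 24.7% of all tested genes. In IVO MII relative to GV 1 rose and 0 fell, against 28.1% and 30.5% of all tested genes, so that count is near the background. TIGAR, which lowers fructose 2,6-bisphosphate, an activator of phosphofructokinase, stood at 89.0 and 106 CPM in IVM MII, at 112 and 102 CPM in IVO MII, and at 34.3 and 33.7 CPM in GV. Both mature groups were above GV and overlapped each other, and TIGAR rose by 2.86-fold in IVM MII (adjusted p = 0.000186 by edgeR) and by 3.16-fold in IVO MII (adjusted p = 6.59e-05 by edgeR). PFKFB2, which makes and removes the same activator, rose by 1.60-fold in IVM MII relative to GV (adjusted p = 0.0318 by edgeR), with 183 of its exon bases shared with YOD1. That call was lost without IVM MII replicate 2 (0.58) or GV replicate 2 (0.47), in the 4 compared libraries alone (0.59), with the strict filter (0.40) and with the length offset (0.33). GCKR, the other regulator called, stood at 0.717 and 1.05 CPM in IVM MII, 0.464 and 0.373 CPM in IVO MII and 0.238 and 0.169 CPM in GV. It rose in IVM MII relative to GV (log2 fold change 2.09 ± 0.63, adjusted p = 0.0158 by edgeR), a call lost with DESeq2 (2.08) and without IVM MII replicate 2 (1.81), GV replicate 1 (2.36) or GV replicate 2 (1.88).

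At the ends of the pathway, the lactate carrier SLC16A1 rose in mature oocytes and glucose transporter transcripts were low. Of 15 tested genes for hexose and lactate transport and lactate dehydrogenase, 1 was higher and 1 lower in IVM MII than in IVO MII, where 14.3% of all tested genes were higher and 10.3% lower. Relative to GV, 5 rose and 2 fell in IVM MII, against 25.6% and 24.7% of all tested genes, and 3 rose and 4 fell in IVO MII, against 28.1% and 30.5%, so most of these counts are near the background. The glucose transporter genes were all low, with SLC2A1 at or near 0 and SLC2A3 at 0.208 and 0.199 CPM in IVM MII, 0.734 and 0.713 CPM in IVO MII and 0.919 and 1.18 CPM in GV. SLC2A3 fell by 5.08-fold in IVM MII relative to GV (adjusted p = 0.00512 by edgeR), a call lost without GV replicate 2 (-2.15, adjusted p = 0.0557). It was also lower in IVM MII than in IVO MII (3.50-fold, adjusted p = 0.0398 by edgeR), a call ended by 11 of the 14 alternatives that tested it, among them leaving out any 1 of the 6 libraries (-1.82 to -1.77). SLC2A12, another transporter of the family, stood at 0.972 and 1.48 CPM in IVM MII, 1.62 and 2.07 CPM in IVO MII and 0.340 and 0.135 CPM in GV, with 528 of its exon bases shared with TBPL1. It rose in IVM MII (adjusted p = 0.00535 by edgeR; lost without GV replicate 2, at 1.84) and in IVO MII (adjusted p = 0.000982 by edgeR), each relative to GV. SLC16A1, which carries lactate and pyruvate over the membrane, stood at 86.5 and 65.2 CPM in IVM MII, at 77.9 and 85.2 CPM in IVO MII, and at 27.4 and 30.0 CPM in GV. Both mature groups were above GV and overlapped each other, and SLC16A1 rose by 2.65-fold in IVM MII (adjusted p = 0.000455 by edgeR) and by 2.85-fold in IVO MII (adjusted p = 0.000176 by edgeR). BSG, its partner at the membrane, stood at 15.1 and 5.00 CPM in IVM MII, 9.97 and 12.8 CPM in IVO MII and 4.12 and 4.63 CPM in GV. It rose in IVO MII relative to GV by 2.60-fold (adjusted p = 0.0160 by edgeR), a call lost with the strict filter (1.05) and without IVO MII replicate 2 (1.20) or GV replicate 1 (1.30). BSG also rose in IVM MII relative to GV by 2.31-fold (adjusted p = 0.034 by edgeR), a call lost in 7 of the 15 alternatives.

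LDHC, a lactate dehydrogenase best known from the testis, had the largest fold between the mature groups among the called genes of the 7 pathway lists set beside the enzymes. The table gives it only as LOC101925242, on chromosome 14 with 11 exons, and its name rests on the gene number. Whether reads of other lactate dehydrogenase genes lie in it was not tested. LDHC stood at 165 and 208 CPM in IVM MII, at 33.5 and 35.7 CPM in IVO MII, and at 69.8 and 63.2 CPM in GV. The 3 groups did not overlap, with GV between the mature groups. LDHC was 5.39-fold higher in IVM MII than in IVO MII (log2 fold change 2.43 ± 0.23, adjusted p = 4.52e-05 by edgeR), rose by 2.80-fold in IVM MII relative to GV (adjusted p = 0.000255 by edgeR) and fell by 1.92-fold in IVO MII relative to GV (adjusted p = 0.00303 by edgeR), the last call ending with the gene length offset (-0.38). LDHB had 17, 10 and 9 counts in IVM MII, IVO MII and GV and was not tested. The gene that the names table gives as LDHA (LOC101867330, on chromosome 17 with 2 exons) stood at 33.0 and 34.4 CPM in IVM MII, 24.5 and 25.0 CPM in IVO MII and 68.0 and 76.4 CPM in GV, and fell in both mature groups relative to GV (adjusted p = 0.00127 for IVM MII and 9.83e-05 for IVO MII by edgeR). Whether that locus is LDHA itself or a copy of it is uncertain. LDHAL6A and LDHAL6B, near relatives, were looked up after their values were seen. LDHAL6A was much more abundant, at 1726 and 2114 CPM in IVM MII, 679 and 678 CPM in IVO MII and 1686 and 2282 CPM in GV. LDHAL6B averaged 207.5 CPM in IVM MII, 71.7 CPM in IVO MII and 217.8 CPM in GV, with 168 of its exon bases shared with MYO1E. Both were higher in IVM MII than in IVO MII, by 2.83-fold for LDHAL6A and 2.89-fold for LDHAL6B (adjusted p = 0.00212 and 0.00125 by edgeR). Reads of such close relatives may have been exchanged in alignment.

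**Figure D4:**
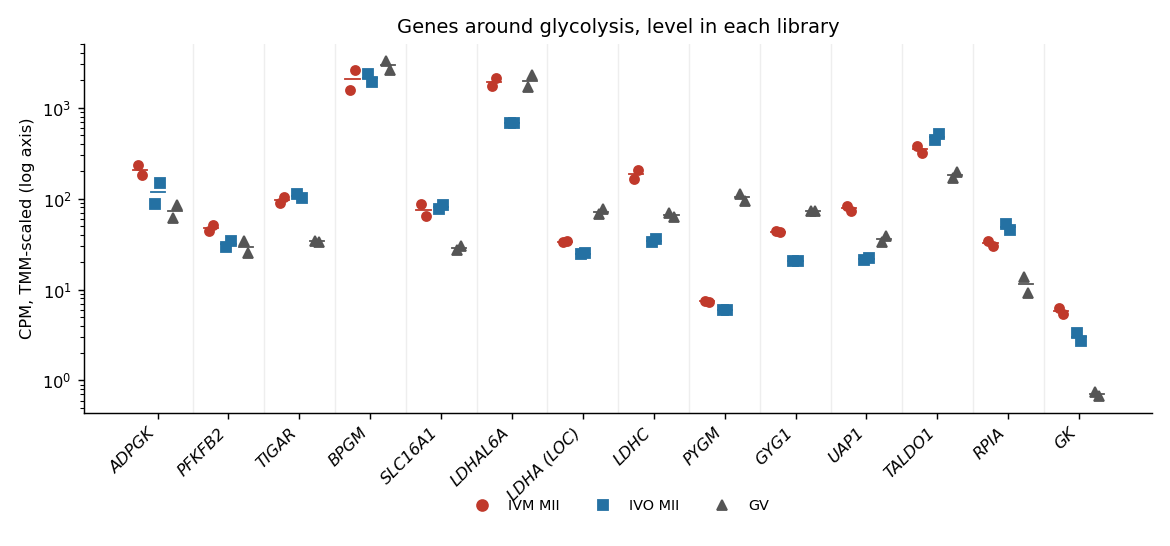
CPM on a log axis of genes beside the pathway, with a point for each library and a line at the mean of a group; LDHA (LOC) is LOC101867330, the gene given as LDHA in the names table. LDHC (LOC101925242, named by gene number) and LDHAL6A have both IVM MII libraries above both IVO MII libraries. TIGAR and SLC16A1 have the 4 libraries of mature oocytes above both GV libraries.

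In the pentose phosphate pathway TALDO1 and RPIA rose and TKT fell in both mature groups. Of 12 tested genes of the pentose phosphate pathway, which makes NADPH and ribose from glucose 6-phosphate, 4 rose and 5 fell in IVM MII relative to GV, with the same numbers in IVO MII relative to GV. Over all tested genes 25.6% rose and 24.7% fell in IVM MII, and 28.1% rose and 30.5% fell in IVO MII, so these counts are not far from the background. Those that rose in both were RPIA, RPE, TALDO1 and PGM2, among which TALDO1, transaldolase, stood at 383 and 315 CPM in IVM MII, 443 and 520 CPM in IVO MII and 171 and 197 CPM in GV. TKT, transketolase, stood at 20.7 and 12.1 CPM in IVM MII, at 14.1 and 14.1 CPM in IVO MII and at 31.9 and 38.6 CPM in GV. TKT fell in both mature groups (adjusted p = 0.00624 for IVM MII and 0.00167 for IVO MII by edgeR), and the call in IVM MII was lost with library totals (-0.78) and without IVM MII replicate 2 (-0.76). In IVM MII the call of TALDO1 was lost without GV replicate 1 (0.83), and that of RPE with the strict filter (0.42) and without IVM MII replicate 1 (0.73), IVM MII replicate 2 (0.72) or GV replicate 2 (0.63). In IVO MII the call of PGM2 was lost with the strict filter (0.41) and without IVO MII replicate 2 (0.61), GV replicate 1 (0.72) or GV replicate 2 (0.77).

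The glycogen gene PYGM fell further than any other called gene of the 7 lists set beside the enzymes, in each comparison with GV. PYGM, the muscle glycogen phosphorylase, which releases glucose 1-phosphate from glycogen, stood at 7.50 and 7.33 CPM in IVM MII, at 5.95 and 5.94 CPM in IVO MII, and at 113 and 94.3 CPM in GV. It fell by 14.0-fold in IVM MII (adjusted p = 1.14e-06 by edgeR) and by 17.4-fold in IVO MII (adjusted p = 5.47e-07 by edgeR), each relative to GV. Of the 11 tested genes of the glycogen and hexosamine branches, 2 rose and 4 fell in IVM MII relative to GV, 0 rose and 7 fell in IVO MII relative to GV, and 3 were higher and 0 lower in IVM MII than in IVO MII. Over all tested genes the shares were 25.6% and 24.7%, 28.1% and 30.5%, and 14.3% and 10.3%, in the same order. The 3 were UAP1, GYG1 and PYGB, of which PYGB lost its call without any 1 of the 4 mature libraries (1.20 to 1.53). UAP1, which makes UDP-N-acetylglucosamine, stood at 82.3 and 73.6 CPM in IVM MII, 21.3 and 22.2 CPM in IVO MII and 33.5 and 39.3 CPM in GV, and was 3.58-fold higher in IVM MII than in IVO MII (adjusted p = 0.000179 by edgeR).

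Of the 4 tested genes around glycerol phosphate and the trioses, 2 rose and 1 fell in IVM MII relative to GV, and 3 rose and 1 fell in IVO MII relative to GV, against 25.6% and 24.7%, and 28.1% and 30.5%, of all tested genes. GK, glycerol kinase, stood at 6.25 and 5.37 CPM in IVM MII, at 3.32 and 2.72 CPM in IVO MII, and at 0.749 and 0.676 CPM in GV, and rose by 8.12-fold in IVM MII (adjusted p = 7.35e-05 by edgeR) and by 4.22-fold in IVO MII (adjusted p = 0.000541 by edgeR). GPD2, the mitochondrial glycerol phosphate dehydrogenase, rose by 2.65-fold in IVM MII and 3.24-fold in IVO MII relative to GV (adjusted p = 0.00107 and 0.000217 by edgeR). GPD1L was 2.05-fold lower in IVM MII than in IVO MII (adjusted p = 0.0157 by edgeR), a call lost with library totals (-0.82) and without IVM MII replicate 1 (-1.09), IVM MII replicate 2 (-0.95) or IVO MII replicate 2 (-0.75). Of the enzymes that bypass the one-way steps towards glucose, PCK1 and PCK2 had 0 counts in every library, and only G6PC3 and PC were tested. G6PC3, a glucose 6-phosphatase of many tissues, was 3.62-fold higher in IVM MII than in IVO MII (adjusted p = 0.00476 by edgeR). The IVO MII libraries held only 25 and 32 counts of it. Relative to GV, G6PC3 fell in IVO MII (log2 fold change -1.50, adjusted p = 0.00532 by edgeR), a call lost with the gene length offset (-0.87). It was not called in IVM MII relative to GV (0.35, adjusted p = 0.426 by edgeR). PC, pyruvate carboxylase, fell in both mature groups relative to GV (adjusted p = 0.0205 for IVM MII and 0.00984 for IVO MII by edgeR), and the call in IVM MII was lost with library totals (-1.21) and without IVM MII replicate 2 (-0.98) or GV replicate 1 (-1.42).

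The enzymes differed among themselves in the shape of their levels over the 6 libraries. For each gene, log2 CPM was centred on the gene's mean, and the median over the 10 enzymes was taken in each library. That median was -0.55 and -0.80 in IVM MII, -0.93 and -0.63 in IVO MII, and 1.53 and 1.58 in GV. The root mean square distance from it was smallest for ALDOA at 0.34 and PKM at 0.41 and largest for PGK1 at 1.00, PFKP at 0.93 and GPI at 0.90, on the log2 scale. PGK1 and PFKP departed by being flatter, and GPI by falling further. Among 6024 other named genes that averaged 10 CPM or more, the 5 nearest to the median pattern over the 6 libraries were ZAR1, LOXL4, CHTOP, VTI1B and PPIE, at distances of 0.079 to 0.129. ZAR1, a maternal gene of oocytes and one of the oocyte markers, averaged 16.7 CPM in IVM MII, 15.7 CPM in IVO MII and 77.0 CPM in GV.

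**Figure D5:**
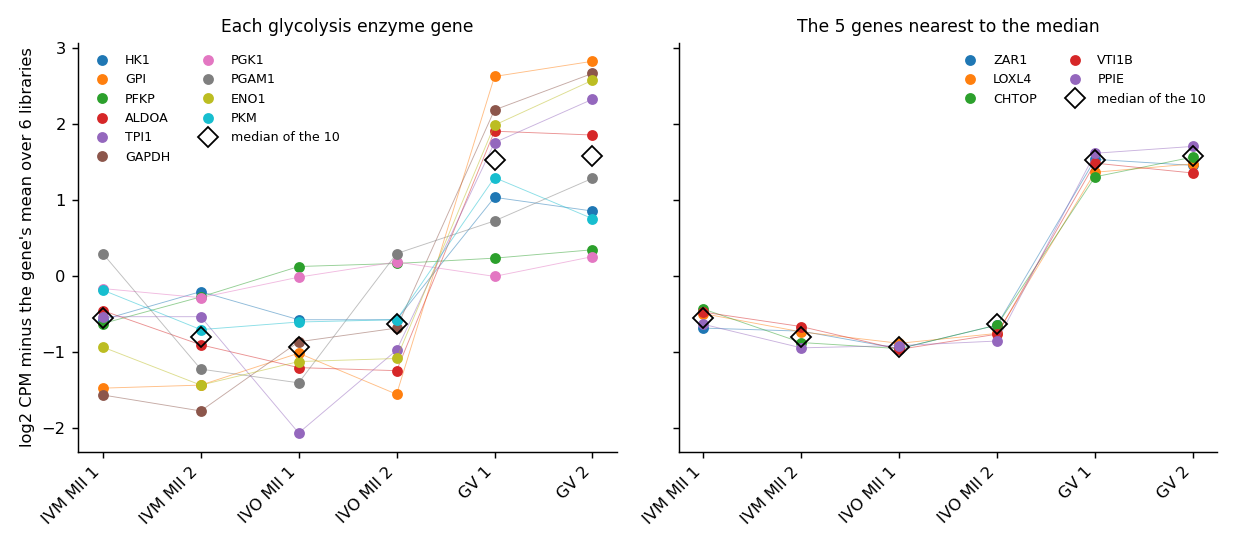
Log2 CPM of each glycolysis enzyme gene minus its mean over the 6 libraries (left) and the same for the 5 genes with the most similar pattern (right), with the median of the 10 enzymes as open diamonds; thin lines only join the points of a gene. The median lies between -0.93 and -0.55 in the libraries of mature oocytes and at 1.53 and 1.58 in the GV libraries, and PFKP and PGK1 are the flattest.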

How the data were processed

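Raw fragment counts by gene were deposited by the authors for 6 libraries. Per the file headers, they were counted with featureCounts 2.0.1 over the exons of macFas5 RefSeq genes, with no option for strand. The submitters' processing notes also list fastp, FastQC, Bowtie2 and SAMtools. Per the labels' protocols, cDNA was made from poly(A) RNA by the SMART method, amplified by PCR and tagmented. No molecular identifiers are named in the sources used here. The library totals are given above. The exon lengths in the deposited table (its other column used) served only for RPKM. No exon base of the 10 genes is shared with another annotated gene.

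The members and gene lists were chosen with earlier results of these data known. Genes given only as LOC identifiers were named by gene number from a RefSeq table of a later assembly, used for names only; 5 genes of the pathway lists and 3 markers were named in this way. Genes passed edgeR's filterByExpr (15815 kept, 12349 left out). edgeR 4.0.16 in R 4.3.3 fitted all 6 libraries with TMM factors, robust quasi-likelihood and group as the term, with 3 residual degrees of freedom and a biological coefficient of variation of 0.232. Tests were two-sided with no fold threshold, and p-values were adjusted (Benjamini-Hochberg) over every gene tested. Named were all 10 members, any tested isozyme, and the 5 genes most like the members in pattern (HK1 with 0.1 CPM added). From each of 7 other lists, up to 3 genes per direction and comparison were picked by adjusted p, and not all of those picked are named in the text. A few genes of these lists are not reported here and are left out of the counts. A planned rule for gene copies could not be applied, because the names table holds no descriptions. Alternatives were RLE factors, library totals, DESeq2 1.42.0, limma-voom (limma 3.58.1), no filter, a strict filter, the 4 compared libraries alone, a replicate block, a gene length offset and each library left out. The fit was also run on simulated data in which a small set of genes was changed in IVM MII alone. Far more genes were called in the real data, so the simulation does not test the fit under changes that broad. Figures were drawn with matplotlib 3.10.9.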

Additional observations from a re-analysis of the deposited data

How the results depend on the processing

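Each member's result in a comparison was counted once for each alternative setting that tested it. Counted so, the called results kept direction and call 196 times and lost the call 10 times. The uncalled results kept both 162 times, became called 12 times and changed sign 16 times. In IVM MII against IVO MII, the count of higher members (0) was 1 with no filter and 1 with the replicate block, and ran from 0 to 1 with a library left out. The count of lower members (1) was 2 with RLE factors, 2 with DESeq2, 2 with the length offset, 0 with library totals, 0 with limma-voom and 0 in the 4 libraries alone, and ran from 0 to 1 with a library left out. Among all genes there, 2260 were higher (1327 to 2096 with a library left out) and 1635 lower (894 with library totals, 1051 with the strict filter, 753 to 1496 with a library left out). In IVM MII against GV, 4053 rose (2268 with the strict filter, 2580 to 4452 with a library left out) and 3908 fell (2352 with the strict filter). In IVO MII against GV, 4442 rose and 4816 fell, against 2727 and 2859 with the strict filter, which tested fewer genes. Library totals moved the median of all genes to 0.24 in IVM MII against IVO MII and 0.35 in IVM MII against GV, and the share of higher genes among those called to 75.8% against 58.0%, and to 63.7% against 50.9%. The uncalled values that changed sign in IVM MII against IVO MII were GPI (0.02 with library totals, -0.45 to 0.10 with a library left out), PGAM1 (-0.02 with RLE factors, -0.02 with DESeq2, -0.15 with the length offset, -0.95 to 1.23 with a library left out, -0.57 without IVO MII replicate 1), ENO1 (0.18 with library totals, 0.01 with the strict filter, -0.30 to 0.18 with a library left out) and PKM (-0.09 to 0.41 with a library left out). In IVO MII against GV they were PFKP (0.04 with the length offset) and PGK1 (0.03 with library totals, 0.49 with the length offset, -0.17 to 0.09 with a library left out). The cause was not tested. No source links replicates of the same number, and their deviations correlated at -0.102 (IVM MII and IVO MII), -0.131 (IVM MII and GV) and 0.151 (IVO MII and GV) over 15815 genes. With the replicate number as a block, the members' counts of lower genes were 1, 7 and 6, as without it, and TPI1 was called as higher in IVM MII than in IVO MII (0.97, adjusted p = 0.0427 by edgeR). Counts of 7 to 41 for PGAM1 in mature oocytes, and of 0 or 1 for HK1, limit what can be said of these genes. Leaving out a library leaves a lone one that is assumed to vary like the other groups.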
